A study of Mus musculus with 8 samples.

Results

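The nucleoporins, which build the nuclear pore, and the receptors that carry cargo through it were examined in 4T1 cells, a mouse line of triple-negative breast cancer (TNBC). Their genes were taken as every row whose symbol begins with Nup, Kpna, Kpnb, Ipo, Xpo or Tnpo and a number, together with Tpr, Ranbp2, Rae1, Ran, Rcc1 and Cse1l. This rule found 48 of the 28712 genes listed, and 47 of them had a mean normalized count of at least 10 in both tables. Nup62cl was left out, with means of 0.73 and 0.49, whereas Nup210l was kept with means of 26.97 and 34.64.

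The series holds 8 libraries in 4 groups, and 6 libraries in 3 groups are described here. Cells of the group sdAb-Con (48 h) had 0.5 μg/ml of a control single-domain antibody (sdAb) for 48 h. Those of sdAb#07.81 (24 h) and sdAb#07.81 (48 h) had the same dose of an sdAb selected against the stress protein NUPR1 for 24 h or 48 h. According to the study, the purified proteins carry a Tat peptide for entry into cells and the degron of ornithine decarboxylase, so both antibodies share these parts. The labels place the treatment on confluent cultures, and their culture protocol gives a low oxygen level for all groups. The untreated group Con was not analysed here. No group had the control sdAb for 24 h, so the change from 24 h to 48 h under sdAb#07.81 has no matching change under the control.

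The deposited tables pool each pair of groups in 1 mean normalized count per gene. Whole reads per library were recovered from the digits of these means, and each library was placed in a group by the table or tables that hold it. The libraries common to both tables are those of sdAb#07.81 (48 h), the group both tables name. Which library carries which replicate number is unknown, so the libraries of a group are called a and b here, and these letters have no order. Depth was between 14224884 and 17211766 recovered reads per library. The libraries of a group differed by 9.38 to 11.6 times the variance that counting alone gives, so no library was counted as a copy of another. Nothing says whether they came from separate cultures, and p-values measure only the spread between them, which may be technical.

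A nuclear pore is a ring of nucleoporins set into the nuclear envelope. An outer ring and an inner ring form the scaffold, a mesh of phenylalanine-glycine repeats fills the central channel, and filaments extend on the cytoplasmic face and as a basket on the nuclear face. Importins bring proteins with a nuclear localization signal inward, importin alpha reading the signal and importin beta carrying the complex through the pore. Exportins carry cargo outward together with the small GTPase Ran in its GTP form. Rcc1, the exchange factor on chromatin, loads Ran with GTP in the nucleus. Pores are built after mitosis and during interphase, and dividing cells must keep building new ones.

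All 6 marker genes of 4T1 mammary tumor cells, Krt8, Krt18, Krt19, Epcam, Cdh1 and Cldn7, were present in every library, summing to between 39359 and 47674 normalized counts. Of the markers of other cells, Ptprc, Cd3e, Itgam, Lyz2, Cdh5 and Kdr were at 4.4 or fewer normalized counts in each library and Pecam1 at 10.4 or fewer. Cd68, a lysosomal protein of macrophages, was present in all libraries, at 270 and 237 at 24 h against 1041 and 646 in sdAb-Con (48 h) and 500.5 and 652 in sdAb#07.81 (48 h). The 4 fibroblast genes summed to between 900.2 and 1347. Library b of sdAb#07.81 (24 h) stood apart, with no Col3a1 reads, 38.2 normalized counts of Col1a1 and 2.9 of Dcn, the lowest of the 6 libraries, but 1247 of Pdgfra, the highest. Every other library had at least 84.5, 152 and 30.6 of the first 3 and at most 957 of Pdgfra. From 24 h to 48 h under sdAb#07.81, Pdgfra fell (log2 fold change -0.77, adjusted p = 0.000183), Col1a1 and Col3a1 were called higher (1.04 and 3.66, adjusted p = 0.0476 and 0.0122) and Dcn did not pass (adjusted p = 0.102). The groups overlapped for Col1a1 and Col3a1, which had 196.5 and 146 normalized counts in library a of sdAb#07.81 (24 h). At 48 h Col1a1 had 214.8 and 152 and Col3a1 had 130.3 and 90.8. The part of these genes in the results below was not tested. Nupr1 itself, the target, had 3576.5 and 2999 normalized counts in sdAb-Con (48 h), 1555 and 2136 in sdAb#07.81 (24 h) and 2918.5 and 2919.5 in sdAb#07.81 (48 h). An antibody that acts on the protein leaves the mRNA uninformative as a check of the labels.

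To set levels of different genes beside each other, normalized counts were divided by the length of the longest annotated transcript in kb. Averaged over the 6 libraries, the 47 genes had a median level of 434 normalized counts per kb, against 142 for all 13751 tested genes with a known length. With the deposited means the median level of the 47 was 375 per kb in the table with sdAb-Con (48 h) and 483 per kb in the table with sdAb#07.81 (24 h). Levels spanned from 5.18 per kb for Nup210l, a relative of Nup210, to 3225 per kb for Ipo5, an importin for ribosomal proteins and histones.

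Carriers and Ran took the first 5 places. Ipo5 was followed by Ipo7, another importin for ribosomal proteins and histones, at 3179 per kb. The means of Ipo7 allowed 2 sets of whole reads, and the set used was chosen because the other put the libraries of a group 27.2-fold apart. Kpnb1, the importin beta of the classical pathway, came next at 2552, then Ran at 2424 and Kpna2, an importin alpha, at 1632. The libraries of Ipo5 ran from 2948 to 3592 per kb and those of Ipo7 from 2804 to 3389, so the order of these neighbors is within their spread. Kpna2 ran from 1162 to 2759, which overlaps the range of Ran, 1483 to 3534.

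The nucleoporins overlapped the transport receptors in level. The median of the outer ring was 466 per kb, between those of the importin beta family, 564, and of the exportins, 288. Tpr, the coiled-coil protein of the basket, was the highest nucleoporin at 807 per kb, followed by Nup107 of the outer ring at 650, Nup37 of the same ring at 639 and Nup62 of the central channel at 616. Inner ring genes ranged from 217 per kb for Nup35 to 534 for Nup205. Apart from Nup210l, the lowest gene was Nup210, a membrane-spanning nucleoporin, at 82.7 per kb. Exportins ranged from 186 for Xpo7 to 982 for Xpo1, the exportin of proteins with a leucine-rich export signal. These levels depend on the transcript chosen, since with the median transcript length in place of the longest the median over the 47 genes in the first table was 1102 per kb.

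**Figure D1:**
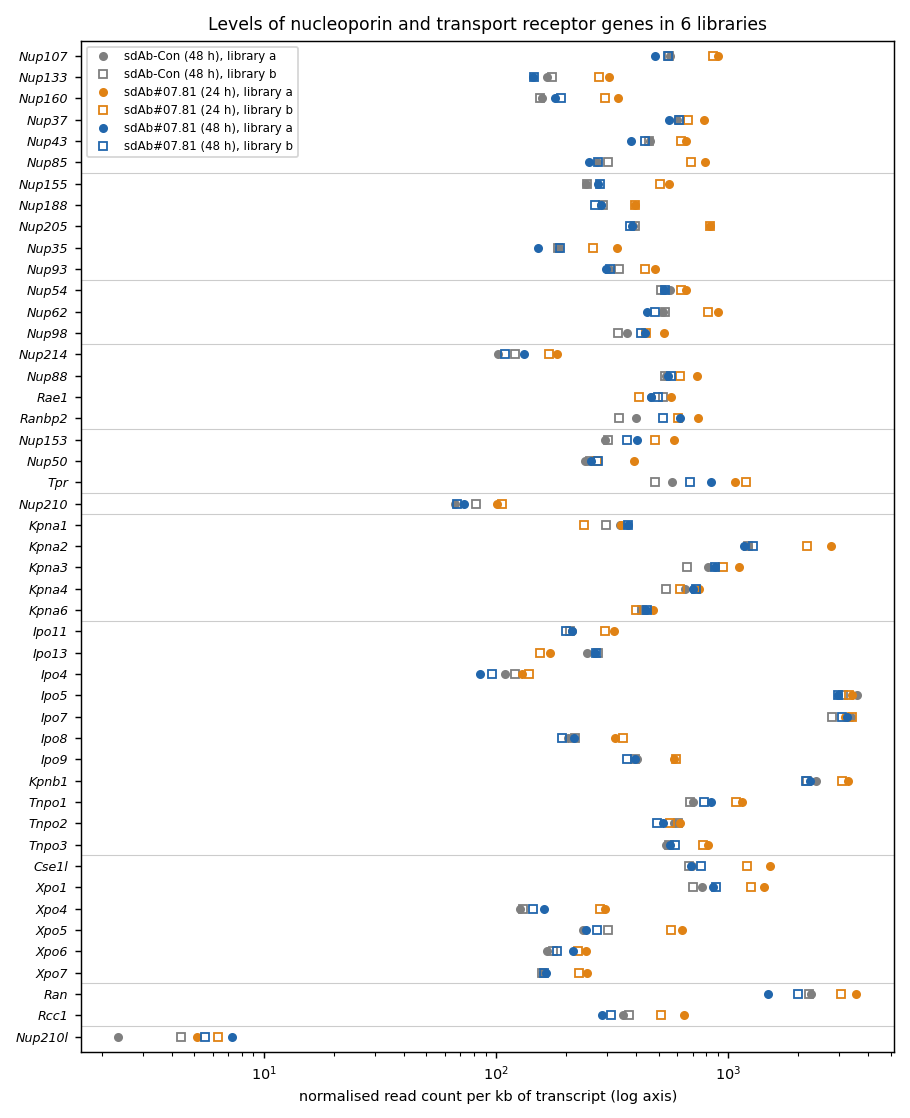
Normalized read count per kb of transcript (log axis) of 47 nucleoporin and transport receptor genes, 1 row per gene and 1 symbol per library, with gray lines between role groups. Ipo5, Ipo7, Kpnb1, Ran and Kpna2 lie farthest to the right, and for most genes the orange symbols of sdAb#07.81 (24 h) lie to the right of the other 4.

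The question of how the genes change with time under sdAb#07.81 was addressed by the comparison of sdAb#07.81 (48 h) with sdAb#07.81 (24 h). Of the 47 genes, 31 were lower and 2 were higher at 48 h, at an adjusted p under 0.05 (limma-voom, Benjamini-Hochberg over 13911 genes, two-sided). That is 66.0% called lower, against 22.1% of all tested genes, and 4.26% called higher, against 21.1% of all. The median log2 fold change of the 47 was -0.55, and that of all tested genes was -0.01. In 38 of the 47 both libraries at 48 h were below both at 24 h, a pattern seen in 36.1% of all tested genes. Values are relative to the whole library, and in bulk RNA fewer cells of a kind and less RNA per cell cannot be told apart.

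All 6 outer ring genes that the symbol rule took fell between 24 h and 48 h, whereas Seh1l and Sec13 of the same ring, which it did not take, had log2 fold changes of 0.38 (adjusted p = 0.0133) and 0.06 (adjusted p = 0.725). Nup85, a scaffold subunit of the Y-shaped complex, had 1766 and 1533 normalized counts at 24 h and 559 and 612.5 at 48 h (log2 fold change -1.49 ± 0.128 (SE), adjusted p = 3.8e-08), a 2.81-fold fall and the largest of the 47. Nup133, which tips the stem of the same complex, went from 1769 and 1609 to 837 and 843 (log2 fold change -1.01 ± 0.116 (SE), adjusted p = 1.61e-06). For both genes each 24 h library was far above each 48 h library. Nup160, its large arm subunit, had 1893 and 1669 and then 1016 and 1078.5 (log2 fold change -0.76 ± 0.116 (SE), adjusted p = 3.39e-05). Nup107, the partner of Nup133 in the stem, had 2796 and 2662.5 and then 1507 and 1715 (log2 fold change -0.76 ± 0.11 (SE), adjusted p = 2.04e-05). The groups did not overlap for either gene. Nup43 went from 1142 and 1078 to 661 and 761 (log2 fold change -0.65 ± 0.123, adjusted p = 0.000335), and Nup37 had a log2 fold change of -0.32 ± 0.125 (adjusted p = 0.044). The call of Nup37 was lost in several alternatives, including the removal of any single library other than library b of sdAb#07.81 (24 h), with log2 fold changes from -0.39 to -0.21 and adjusted p from 0.0594 to 0.267. The gene of Nup43 shares bases with Pcmt1 on the opposite strand, a gene with 192% of its count, and whether counting used strand is not given in the sources used here.

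The inner ring fell as a whole, 5 of 5 genes. Nup205, a large scaffold protein, had 5347 and 5327 normalized counts at 24 h and 2457 and 2402 at 48 h (log2 fold change -1.14 ± 0.103 (SE), adjusted p = 8.22e-08). Its libraries were nearly equal within each group, so the gap between the groups was many times the spread. Nup155, which bridges the rings, went from 4364 and 3977 to 2157 and 2184 (log2 fold change -0.94 ± 0.106 (SE), adjusted p = 1.18e-06). Nup35, the small membrane-binding subunit, went from 893 and 701 to 407 and 509 (log2 fold change -0.80 ± 0.15 (SE), adjusted p = 0.000293). Nup93, which holds the ring and anchors the channel, went from 1418 and 1273 to 867.5 and 902 (log2 fold change -0.60 ± 0.12 (SE), adjusted p = 0.000497). In each of these the 48 h libraries lay below both 24 h libraries. The remaining member, Nup188, had a log2 fold change of -0.52 ± 0.107 (adjusted p = 0.000652). Nup35 overlaps Dusp19 on the same strand, a gene with 36.7% of its count.

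Of 3 central channel genes, 1 was called lower, or 33.3% against 22.1% of all tested genes, and all 3 had log2 fold changes below 0. The one called was Nup62, the repeat protein at the center of the channel, with 2455 and 2219 normalized counts at 24 h and 1217 and 1310 at 48 h (log2 fold change -0.89 ± 0.112 (SE), adjusted p = 4.68e-06). Nup54, its partner, had a log2 fold change of -0.27 ± 0.112 (adjusted p = 0.057), and Nup98, a repeat protein that also binds RNA export factors, of -0.17 ± 0.114 (adjusted p = 0.231). Nup54 was called with upper-quartile scaling, at -0.29 (adjusted p = 0.0499), and with the trend of transcript length and GC content removed, at -0.32 (adjusted p = 0.026). Atf5, on the opposite strand, shares 571 bases with Nup62 and had 59.4% of its count.

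On the cytoplasmic face 1 of 4 genes passed, and all 4 had log2 fold changes below 0. Nup214, a filament protein that docks export complexes, had a log2 fold change of -0.54 ± 0.131 (adjusted p = 0.00257). Without library b of sdAb#07.81 (48 h) it was -0.41 (adjusted p = 0.0587), and 0 of the 4 genes were then called. Nup88, its anchor and the highest of this group per kb, had 2187 and 1858.5 normalized counts at 24 h and 1648.5 and 1701 at 48 h (log2 fold change -0.27 ± 0.113 (SE), adjusted p = 0.0628). Ranbp2, the giant filament protein with SUMO ligase activity, had 7071 and 5807 and 5924.5 and 5040 (log2 fold change -0.23 ± 0.124 (SE), adjusted p = 0.144), and its groups overlapped. The mRNA export factor Rae1 had a log2 fold change of -0.01 ± 0.143 (adjusted p = 0.979). Ranbp2 and Nup88 were called lower without library b of sdAb#07.81 (24 h), at -0.38 (adjusted p = 0.0378) and -0.39 (adjusted p = 0.0203). Rabep1, on the opposite strand, shares 48 bases with Nup88 and had 115% of its count.

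In the basket 2 of 3 genes fell. Tpr had 7994 and 8900 normalized counts at 24 h and 6290.5 and 5111.5 at 48 h (log2 fold change -0.57 ± 0.122 (SE), adjusted p = 0.000897). Nup153, which tethers the basket to the pore, had a log2 fold change of -0.46 ± 0.115 (adjusted p = 0.0031), and without library a of sdAb#07.81 (24 h) of -0.33 (adjusted p = 0.053). Nup50, a mobile cofactor of importin alpha, did not pass the test, at -0.30 ± 0.141 (adjusted p = 0.0967), but passed without library b of sdAb#07.81 (24 h), at -0.56 (adjusted p = 0.00144). The membrane protein Nup210 went from 708 and 749 to 513 and 478 (log2 fold change -0.55 ± 0.138 (SE), adjusted p = 0.00316). Nup210l, with 29.4 and 36.3 normalized counts at 24 h and 41.7 and 31.7 at 48 h, had the widest interval of the 47, from -0.58 to 0.91 on the log2 scale. Gm43712, on the same strand, shares 291 bases with it and had 40.4% of its count.

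Of the 5 importin alpha genes, 1 was called lower and 1 higher, close to the 22.1% and 21.1% of all tested genes. Kpna2, the isoform known to be high in dividing cells, had 5668 and 4481 normalized counts at 24 h and 2387 and 2613 at 48 h (log2 fold change -1.01 ± 0.119 (SE), adjusted p = 1.94e-06). Kpna1, a broadly expressed isoform, was among the 2 genes that rose, with 1727 and 1201 and then 1871 and 1862 (log2 fold change 0.37 ± 0.141 (SE), adjusted p = 0.0386). The libraries of Kpna1 at 24 h were farther apart than the group means, and without library b of that group its log2 fold change was 0.11 (adjusted p = 0.562). Its call was also lost without either library of sdAb#07.81 (48 h) (adjusted p = 0.101 and 0.0966). Kpna3, Kpna4 and Kpna6, which read the same kind of signal, had log2 fold changes of -0.23, 0.07 and 0.03, and none passed the test, although Kpna3 was called lower without library b of sdAb#07.81 (24 h), at -0.35 (adjusted p = 0.0464). Kpna1 is named for its direction, which was seen first, and like some other genes given values here falls outside the rule for named genes.

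Of the 11 importin beta genes, 7 fell and 1 rose. Ipo8, a carrier of Argonaute and SMAD proteins, had 1974 and 2128 normalized counts at 24 h and 1309 and 1156 at 48 h (log2 fold change -0.74 ± 0.115 (SE), adjusted p = 4.68e-05). Ipo9, a carrier of histones and actin, had 3644 and 3699 and then 2478.5 and 2286 (log2 fold change -0.62 ± 0.105 (SE), adjusted p = 0.000101). In the opposite direction, Ipo13, which carries cargo both ways, had 610 and 553.5 at 24 h and 961 and 965 at 48 h (log2 fold change 0.73 ± 0.126 (SE), adjusted p = 0.000134). For all 3 genes the groups were apart in every library, and Ipo13 was the only one of the 47 to rise by over 0.5 on the log2 scale.

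Of the 3 most abundant importins, 1 passed the test. Kpnb1 fell from 19239 and 18251 to 13235 and 12694 (log2 fold change -0.53 ± 0.103 (SE), adjusted p = 0.000412). Ipo5 had 15435.5 and 14982 at 24 h and 13341 and 13320 at 48 h (log2 fold change -0.19 ± 0.106, 95% interval -0.41 to 0.03, adjusted p = 0.156). Ipo7 had 15166.5 and 16141 and 15501.5 and 14698 (log2 fold change -0.05 ± 0.11, 95% interval -0.28 to 0.18, adjusted p = 0.732). The other members that fell were Ipo11, Ipo4, Tnpo1 and Tnpo3, with log2 fold changes of -0.59, -0.57, -0.46 and -0.47. Ipo4 was no longer called without library a of sdAb#07.81 (48 h), at -0.49 (adjusted p = 0.0569). Tnpo1 carries RNA-binding proteins and Tnpo3 carries splicing factors of the SR family.

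Exportins fell in 5 of 6 cases. Xpo5, which takes precursor miRNAs out of the nucleus, had 3204 and 2867 normalized counts at 24 h and 1233.5 and 1379 at 48 h (log2 fold change -1.22 ± 0.126 (SE), adjusted p = 4.58e-07), a 2.32-fold fall. Xpo4, a relative of the importins that exports translation factors, had 2551.5 and 2442 and then 1385 and 1252 (log2 fold change -0.92 ± 0.11 (SE), adjusted p = 2.49e-06). Cse1l, which returns importin alpha to the cytoplasm, had 5494 and 4356.5 and then 2523 and 2763 (log2 fold change -0.89 ± 0.118 (SE), adjusted p = 8.4e-06). None of the 48 h libraries of these genes reached the lowest 24 h library. Xpo1 went from 8548 and 7528.5 to 5143.5 and 5330 (log2 fold change -0.62 ± 0.108 (SE), adjusted p = 0.000155), and Xpo7 had a log2 fold change of -0.55 ± 0.105 (adjusted p = 0.000367). Xpo6, the exportin of actin, did not pass, at -0.25 ± 0.116 (adjusted p = 0.0863).

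Both genes of the Ran system fell. Ran had 8563 and 7398.5 normalized counts at 24 h and 3593 and 4808.5 at 48 h (log2 fold change -0.94 ± 0.127 (SE), adjusted p = 1.01e-05). Rcc1 had 1498 and 1186 and then 661 and 726 (log2 fold change -0.95 ± 0.133 (SE), adjusted p = 1.58e-05). The libraries of Ran stood apart within both groups, yet every 24 h library was above every 48 h library. Ran and Kpna2 are known to have processed copies elsewhere in the genome, and how reads with several matches were counted is not given in the sources used here, so their values are less certain.

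**Figure D2:**
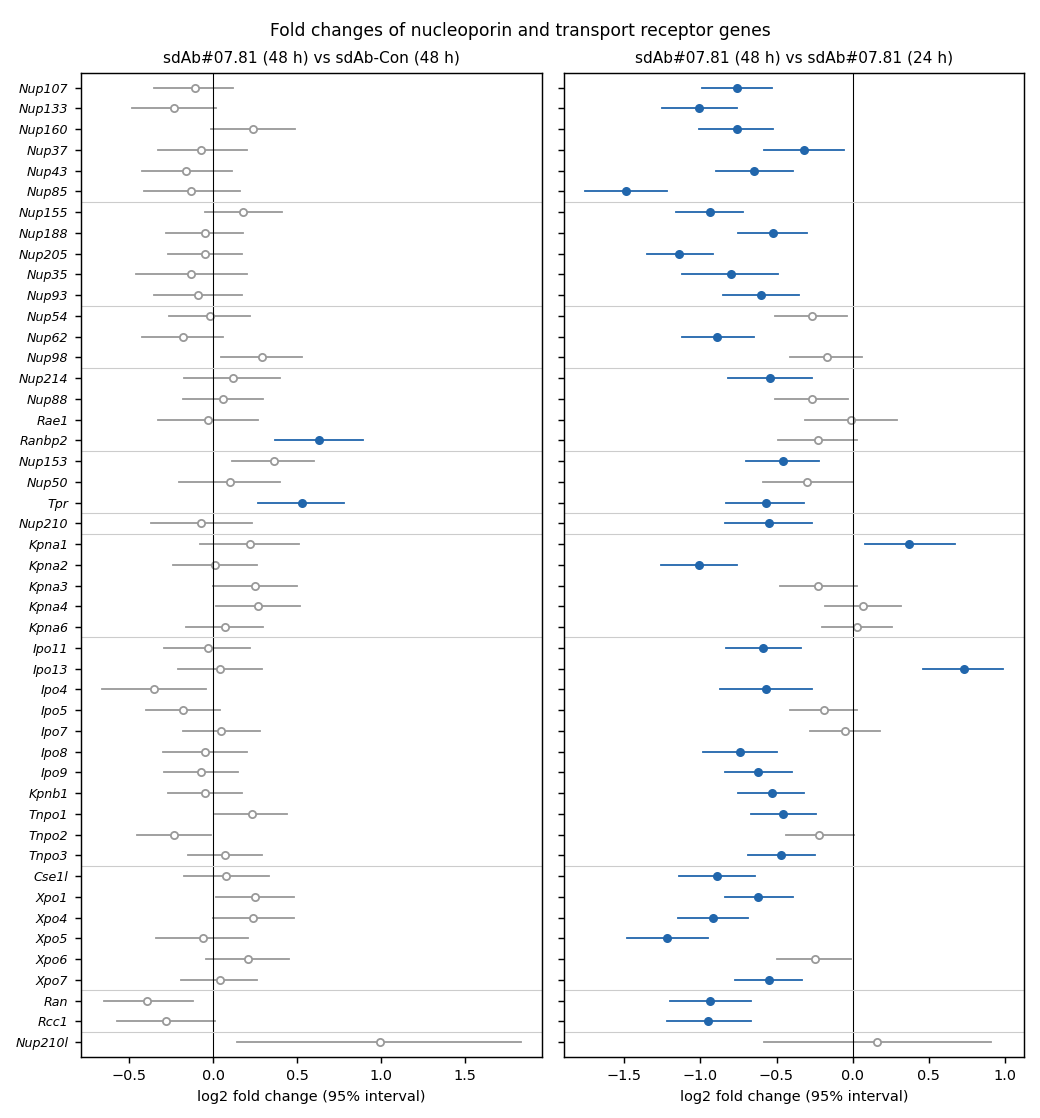
Log2 fold changes with 95% intervals (limma-voom) of the 47 genes, in rows by role group, for sdAb#07.81 (48 h) against sdAb-Con (48 h) on the left and against sdAb#07.81 (24 h) on the right. Filled blue points passed an adjusted p of 0.05 (2 genes on the left, 33 on the right), and open gray points did not.

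RefSeq promoters of build GRCm38.p6, from 250 bases before to 50 bases after the gene's start, were matched by symbol to 38 of the 48 genes. Of the genes that the results turn on, 5 are shown, each 5′ to 3′ on the gene's own strand. Kpna2, Xpo5 and Ran stand for importins, exportins and the Ran system that fell from 24 h to 48 h. Tpr is shown for its difference between the antibodies, given below. Ipo13 is shown because it rose the most from 24 h to 48 h among the genes that the symbol rule took. Capitals mark every match, on either strand, of CCAAT (the CCAAT box), TTTGAA (the core of the cell cycle gene homology region), TTCCCGC (an E2F word), CACGTG (the E-box), CCGGAAGT (an ETS word) and CGCATGCG (an NRF1 word). No 2 of these matches overlap in the promoters printed.
Kpna2 promoter (chr11:106999476-106999775, minus strand): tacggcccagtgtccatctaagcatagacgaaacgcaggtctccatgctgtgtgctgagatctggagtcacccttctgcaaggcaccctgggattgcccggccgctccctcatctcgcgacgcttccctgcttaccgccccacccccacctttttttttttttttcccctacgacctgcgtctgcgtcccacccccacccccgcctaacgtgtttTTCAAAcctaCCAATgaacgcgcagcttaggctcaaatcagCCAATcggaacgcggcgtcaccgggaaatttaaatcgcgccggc
Xpo5 promoter (chr17:46202561-46202860, plus strand): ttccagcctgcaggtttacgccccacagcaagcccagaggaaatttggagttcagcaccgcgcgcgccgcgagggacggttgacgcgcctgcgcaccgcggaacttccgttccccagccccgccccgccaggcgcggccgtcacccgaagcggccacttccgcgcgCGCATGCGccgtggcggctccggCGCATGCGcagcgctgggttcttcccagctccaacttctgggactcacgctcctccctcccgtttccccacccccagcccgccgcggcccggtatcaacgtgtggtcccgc
Ran promoter (chr5:129019906-129020205, plus strand): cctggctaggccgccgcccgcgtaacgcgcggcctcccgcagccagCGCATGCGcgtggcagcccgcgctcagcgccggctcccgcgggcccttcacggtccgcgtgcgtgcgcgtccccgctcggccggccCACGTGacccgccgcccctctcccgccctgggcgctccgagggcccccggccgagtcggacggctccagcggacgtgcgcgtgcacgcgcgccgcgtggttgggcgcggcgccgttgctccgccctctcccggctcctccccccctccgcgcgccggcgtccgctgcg
Tpr promoter (chr1:150392588-150392887, plus strand): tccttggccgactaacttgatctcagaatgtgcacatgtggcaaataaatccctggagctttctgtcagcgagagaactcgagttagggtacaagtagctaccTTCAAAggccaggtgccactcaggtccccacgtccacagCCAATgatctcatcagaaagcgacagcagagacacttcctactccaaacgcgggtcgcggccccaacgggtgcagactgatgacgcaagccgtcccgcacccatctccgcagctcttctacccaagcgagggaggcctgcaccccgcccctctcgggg
Ipo13 promoter (chr4:117914950-117915249, minus strand): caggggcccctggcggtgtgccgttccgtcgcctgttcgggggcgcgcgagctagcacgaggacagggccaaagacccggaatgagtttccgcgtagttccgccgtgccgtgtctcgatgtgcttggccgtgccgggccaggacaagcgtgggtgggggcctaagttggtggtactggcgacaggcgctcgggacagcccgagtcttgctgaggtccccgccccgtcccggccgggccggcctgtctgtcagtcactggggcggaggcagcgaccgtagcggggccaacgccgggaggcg

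Matches were counted in the 45 promoters of the 38 genes, some genes having more than 1 start. CCAAT was in 51.1% of them, against 37.4% of all 32851 promoters. The NRF1 word was in 5 of the 45, or 11.1%, against 1.87% of all, namely Nup107, Nup50, Nup62, Ran and Xpo5. Xpo5 carries it 2 times, and the Kpna2 promoter has 2 CCAAT boxes close to the gene's start beside 1 TTTGAA word read on the other strand. The E2F word was in 11.1%, against 4.60% of all, in Nup107, Nup133, Nup210, Rcc1 and Tnpo1. The ETS word was in 11.1%, against 3.89%, the E-box in 17.8%, against 7.15%, and TTTGAA in 20%, against 17.9%. The Ipo13 promoter held none of these words. Promoters of expressed genes differ in base composition from the average promoter, and the share of matches was not set against that. A match is a string of letters and was not tested as a site.

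The control sdAb at 48 h was next set against sdAb#07.81 at 24 h. These groups differ in antibody and in time at once, which cannot be told apart, and the values are given only beside the others, with which they share libraries. In sdAb-Con (48 h) 35 of the 47 genes were lower and 1 was higher than in sdAb#07.81 (24 h), or 74.5% lower against 26.0% of all tested genes and 2.13% higher against 25.3%. The median log2 fold change was -0.55, and that of all tested genes was 0.00. Of the 36 calls, 26 held in every refit under another scaling, filter, method, trend removal or set of libraries. With the length and GC trend removed 3 of the 47 were higher and 28 lower, beside 3130 and 3219 of the 13751 genes with a length. Nup85 had 605.5 and 673.5 normalized counts in sdAb-Con (48 h), Xpo5 had 1205 and 1542 and Kpna2 had 2486 and 2480. For Nup85, Xpo5 and Kpna2 both groups at 48 h lay below the 24 h libraries, and the 48 h groups overlapped each other. Ipo13, the gene that was higher, had 889 and 987 in sdAb-Con (48 h).

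**Figure D3:**
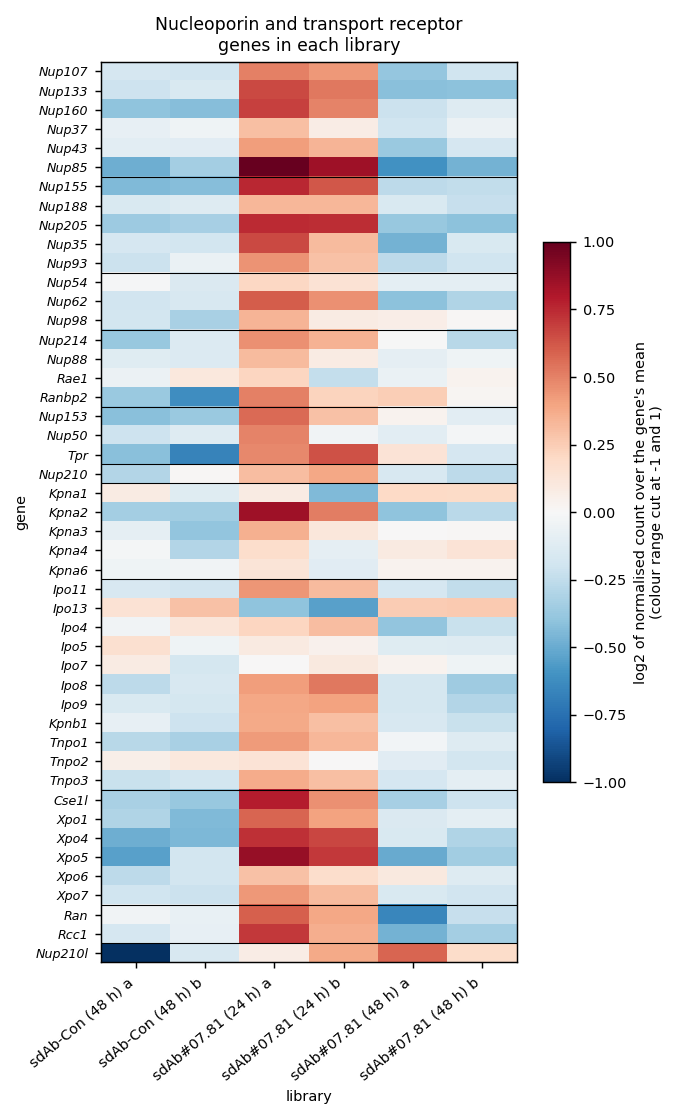
Log2 of each normalized count over the gene's mean across 6 libraries, with 1 row per gene, 1 column per library, black lines between role groups, and the color range limited to between -1 and 1. The columns of sdAb#07.81 (24 h) are red for most genes and those of both 48 h groups blue, with Ipo13 the reverse.

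The effect of the antibody at 1 time was addressed by sdAb#07.81 (48 h) against sdAb-Con (48 h). Here 2 of the 47 genes passed the test, both higher under sdAb#07.81, and 0 were lower (limma-voom, Benjamini-Hochberg). That is 4.26% higher, against 6.38% of all tested genes, and none lower, against 3.60% of all. At an unadjusted p under 0.05, 9 were higher and 3 lower, where 13.7% and 12.8% of all tested genes were, and limma-trend called the same numbers of the 47 after adjustment, 2 and 0. The balance of directions at an unadjusted p under 0.05 turned with the processing. It was 13 higher and 1 lower with upper-quartile scaling (17.1% and 8.89% of all), and 1 higher and 8 lower with the trend of transcript length and GC content removed (8.14% and 7.21% of all). The median log2 fold change was 0.01, and that of all tested genes was -0.02. With upper-quartile scaling 1181 of all tested genes were called higher and 306 lower, in place of 888 and 501, and 3 of the 47 genes were higher and 0 lower.

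Ranbp2 had 5924.5 and 5040 normalized counts in sdAb#07.81 (48 h) and 3848 and 3243 in sdAb-Con (48 h) (log2 fold change 0.63 ± 0.125 (SE), adjusted p = 0.00424), a 1.55-fold difference. Tpr had 6290.5 and 5111.5 and 4292 and 3615 (log2 fold change 0.53 ± 0.122 (SE), adjusted p = 0.0109), a 1.44-fold difference. For both genes the lower library of sdAb#07.81 (48 h) was above the higher library of sdAb-Con (48 h), and in each group library a was the higher. In the files' coordinates, whose build the files do not name, Ranbp2 lies at chr10:58282742-58330178 and Tpr at chr1:150268589-150325686. Odr4, on the opposite strand, shares 243 bases with Tpr and had 14.4% of its count.

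The remaining 45 genes had log2 fold changes from -0.39 for Ran to 0.99 for Nup210l, whose counts were low and whose interval ran from 0.14 to 1.83 (adjusted p = 0.123). In 19 of the 47 both libraries of sdAb#07.81 (48 h) were above both of sdAb-Con (48 h), and in 10 both were below, patterns seen in 27.9% and 30.9% of all tested genes. By role, none of the 24 transport receptors and Ran system genes passed, 4 being higher and 3 lower at an unadjusted p under 0.05, beside 13.7% and 12.8% of all tested genes. The 5 genes with an absolute log2 fold change of at least 1 over time were not called between the antibodies. For Nup133, with both libraries lower under sdAb#07.81, the log2 fold change was -0.23 with a 95% interval of -0.48 to 0.02. For Nup85 the 95% interval of the log2 fold change was -0.41 to 0.16, for Xpo5 -0.34 to 0.21, for Nup205 -0.27 to 0.17 and for Kpna2 -0.24 to 0.26, so differences up to about these sizes were not resolved. All 5 importin alpha genes had fold changes above 0, with a median of 0.22, but with the length and GC trend removed Kpna4 and Kpna6 were below 0, at -0.14 and -0.06, and the others at 0.03 to 0.11. Both Ran system genes were below 0, at -0.39 and -0.28, and at -0.29 and -0.12 with the trend removed. None of these genes was called.

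Both calls rested on particular libraries. Without library b of sdAb-Con (48 h), 0 of the 47 genes were called, against 1.65% of all tested genes called higher and 0.989% lower. At an unadjusted p under 0.05, 4 of the 47 were then higher and 2 lower, with 9.44% and 10.1% of all. Ranbp2 then had a log2 fold change of 0.50 (adjusted p = 0.0851) and Tpr of 0.40 (adjusted p = 0.149). Without library a of sdAb#07.81 (48 h), 0 were called again, with 1.38% of all tested genes higher and 0.159% lower. At an unadjusted p under 0.05, 2 of the 47 were higher and 0 lower, with 7.36% and 4.41% of all. The values of Ranbp2 and Tpr were 0.51 (adjusted p = 0.0971) and 0.37 (adjusted p = 0.261). Nearest to the threshold among the rest were Nup153 (log2 fold change 0.36 ± 0.117 (SE), adjusted p = 0.0571) and Ran (log2 fold change -0.39 ± 0.127 (SE), adjusted p = 0.0588). Nup153 had 2461 and 2229 normalized counts under sdAb#07.81 and 1793.5 and 1859 under the control sdAb. Ran had 3593 and 4808.5 and 5501 and 5370. Nup153 passed with total-count scaling, at 0.37 (adjusted p = 0.0486), and with upper-quartile scaling, at 0.42 (adjusted p = 0.0295). With only the 4 libraries compared Nup153 passed at 0.36 (adjusted p = 0.0238) and Ran at -0.38 (adjusted p = 0.0308). With the length and GC trend removed neither passed, at 0.17 (adjusted p = 0.535) and -0.29 (adjusted p = 0.273). Without library a or library b of sdAb#07.81 (24 h), which takes that group out of the estimate of the spread, both passed and 4 of the 47 were called, 3 higher and 1 lower, with 1235 and 870 of all genes in the first case and 1258 and 884 in the second. Ran also passed without library b of sdAb#07.81 (48 h), at -0.60 (adjusted p = 0.00606).

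Ranbp2 and Tpr have long transcripts, of 9.61 and 7.48 kb, and the difference between the antibodies ran with transcript length over all genes. Spearman's rank correlation of log2 fold change and length was 0.448 over 13751 genes and 0.554 over the 47, as a description, since genes of 1 set of libraries are not independent. Of the 1778 tested genes of at least 6000 bases, 1528 were above 0, and their median was 0.29. Among the 47, the 16 genes of that length had a median of 0.22, and the 31 shorter ones of -0.05. Length also ran with the ratio of the libraries of sdAb#07.81 (48 h) to each other, library a over library b, with a rank correlation of 0.369 over all genes and 0.733 over the 47. Within sdAb-Con (48 h) the corresponding values were -0.0809 and 0.153. The part of length in the difference between the antibodies was not tested beyond removing its trend.

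After a trend with transcript length and GC content over all genes was removed, neither gene passed. Ranbp2 had a log2 fold change of 0.20 (adjusted p = 0.477) and Tpr of 0.25 (adjusted p = 0.337). Instead 1 of the 47 was called, Xpo7, lower under sdAb#07.81 at -0.51 (adjusted p = 0.0133), against 0.720% of all tested genes called lower and 1.43% higher in that setting. Xpo7 has the longest transcript of the 47, 15.12 kb, and its normalized counts were 2487 and 2417 under sdAb#07.81 and 2408 and 2377 under the control sdAb.

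The time comparison was set against length in the same way. The rank correlation of its log2 fold change with length was -0.128 over all genes and 0.137 over the 47. The 16 longer genes had a median of -0.55 and the 31 shorter of -0.53, whereas all tested genes had -0.11 and 0.01. With the trend removed, 32 of the 47 were lower and 2 higher, against 21.3% lower and 21.3% higher of all tested genes.

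**Figure D4:**
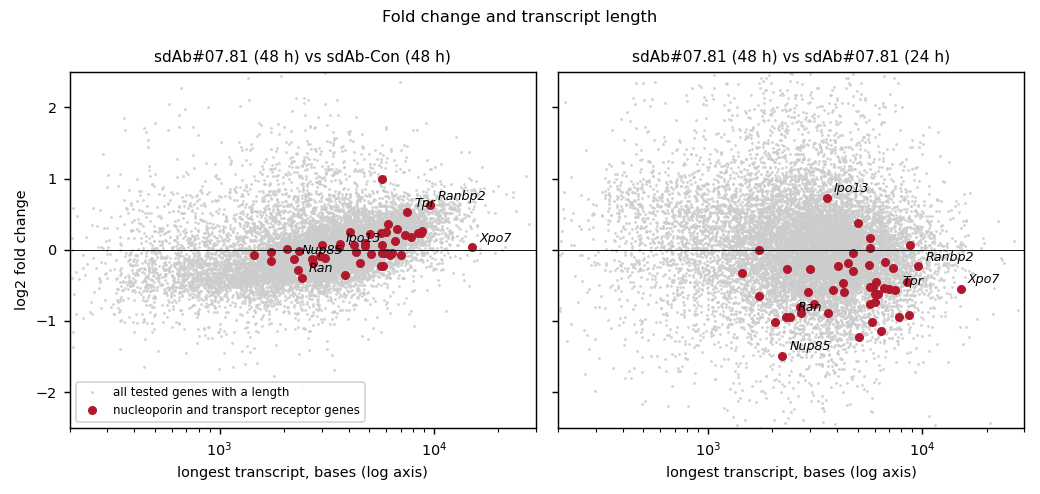
Log2 fold change against longest transcript length (log axis), for sdAb#07.81 (48 h) against sdAb-Con (48 h) on the left and against sdAb#07.81 (24 h) on the right, with tested genes in gray and the 47 genes in red. On the left the gray cloud rises with length and Ranbp2 and Tpr lie on its upper right, on the right most red points lie below 0 at all lengths, and 47 genes on the left and 217 on the right lie outside the axes.

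Other genes of the pore and of transport were taken from a list of 18, of which 17 were tested. From 24 h to 48 h under sdAb#07.81, 11 fell and 2 rose, or 64.7% and 11.8%, against 22.1% and 21.1% of all tested genes. Ranbp1, which helps hydrolyze the GTP of Ran, had 3212 and 2832 normalized counts at 24 h and 922 and 1045 at 48 h (log2 fold change -1.62 ± 0.122, adjusted p = 7.28e-09). Ndc1 and Pom121, which anchor the pore in the membrane, had log2 fold changes of -1.08 and -0.83, the mRNA export receptor Nxf1 of -0.84, and Rangap1, which activates the GTPase of Ran, of -0.69. The genes that rose were Snupn, the adaptor for import of small nuclear RNPs, at 0.93 (adjusted p = 4.24e-05), and Seh1l, an outer ring protein that also serves in amino acid sensing, at 0.38 (adjusted p = 0.0133). Between the antibodies at 48 h only Ahctf1 passed, the protein that seeds pores on chromatin. It was higher under sdAb#07.81 at 0.40 ± 0.113 (adjusted p = 0.0317), so 5.88% of the list was called higher, against 6.38% of all tested genes. The part of transcript length in this call was not tested.

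Of 16 proliferation genes, 15 were tested, and all 15 fell from 24 h to 48 h under sdAb#07.81, against 22.1% of all tested genes, with a median log2 fold change of -1.09. Rrm2, a subunit of ribonucleotide reductase, was at -2.0 ± 0.136 and Plk1, a mitotic kinase, at -1.57. The smallest fall of the 15 was that of Bub1, a spindle checkpoint kinase, at -0.74. Set against the same 24 h libraries, sdAb-Con (48 h) was also lower for all 15, with a median of -1.17. Between the antibodies at 48 h, Mcm5, a subunit of the replicative helicase, and Rrm2 were lower under sdAb#07.81, at -0.43 and -0.54, or 13.3% of the list against 3.60% of all tested genes. Mki67, the Ki-67 antigen, was higher (6.67% of the list against 6.38% of all), at 0.83 (adjusted p = 0.000688), with 13229.5 and 10411 normalized counts in sdAb#07.81 (48 h) and 6963 and 6265 in sdAb-Con (48 h), library a again the higher in both. Differences between the antibodies ran with transcript length over all genes, as given above. The part of length in the calls of Mcm5, Rrm2 and Mki67 was not tested. The part of proliferation in the falls of nucleoporins and transport receptors was not tested either.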

How the data were processed

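Total RNA of 4T1 cells was sequenced as paired reads. Per the labels and the submitters' processing notes, the authors trimmed reads with cutadapt 1.9.1, aligned them with HISAT2 2.0.1 and counted them with HTSeq 0.6.1. The notes name the build GRCh38.p14, a human one, although the gene identifiers are those of mouse. The annotation release, the strand setting and the handling of reads with several matches are not given in the sources used here. Each of the 2 deposited tables gives 1 value per gene, the authors' mean of normalized counts over 4 libraries (a signal, scaled by size factors), beside fold changes, their errors, p-values and adjusted p-values of the authors' own comparison, which were not used.

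A deposited mean is a sum of whole reads, each weighted by its library's size factor, and is printed to 15 digits. Whole reads per library were solved from both tables jointly (Python 3.11.15, mpmath 1.4.1). All 14497 genes below a mean of 10 and 14098 above it had a single solution. Another 117 had several, the lowest of them at a mean of 12346. For 66 of these the only solution with the libraries of each group within 2-fold was taken, all others differing by over 4-fold, and 51 genes, holding 16.0% and 13.1% of the summed means, were left without reads and out of the fit. In 300 of 300 low genes a pair of libraries had equal reads in both tables, against at most 33 for any other pair. This pair was taken as sdAb#07.81 (48 h), the group named by both tables, and the others as the group named by their table alone. No expression level entered this assignment, which is not written in a label. Recovery was tested on simulated data.

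Reads were scaled by median-of-ratios size factors. Genes with a mean of at least 10 (13911) were fitted with limma-voom (limma 3.58.1, R 4.3.3) on 6 libraries with a mean per group, leaving 3 residual degrees of freedom, with Benjamini-Hochberg adjustment over all genes, two-sided, at 0.05. Transcript lengths and GC content came from GENCODE M21 and were known for 98.8% of tested genes. Deposited coordinates were not joined to that build. Every gene by role was counted. Named with values were the 20 called genes with the largest absolute log2 fold change where over 25 were called, or else all called genes, and the highest gene of each role per kb. Some further genes were given values outside this rule. The genes and lists were chosen with earlier results of these data known. Alternatives were total-count and upper-quartile scaling, no filter or a mean of 100, limma-trend (prior count 1), 4 libraries, an absolute log2 fold change of at least 1, removal of a length and GC trend, and each library left out. Depth limits low genes most: the median standard error was 0.12 for the 47 genes and 0.153 for all genes between the antibodies. The untreated group was not analysed here.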

Additional observations from a re-analysis of the deposited data

How the results depend on the processing

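Between 24 h and 48 h of sdAb#07.81, 33 of the 47 genes were called, and 28 of them kept call and direction under every refit (1 higher, 27 lower). The exceptions were Nup37, Nup214, Nup153, Kpna1 and Ipo4. The count ranged from 30 to 36 with each library left out, the highest without library b of sdAb#07.81 (24 h). With an absolute log2 fold change of at least 1 also required, 5 remained there. In sdAb-Con (48 h) against sdAb#07.81 (24 h) 8 remained, and between the antibodies at 48 h 0 did. All tested genes were not counted at that cut, so these counts stand without a share. At an unadjusted p under 0.05, 9 were higher and 3 lower between the antibodies in limma-voom. The numbers were 13 and 1 with upper-quartile scaling, and 1 and 8 with the length and GC trend removed. Of all tested genes, 1258 were called higher and 873 lower between the antibodies with only the 4 libraries compared. With that trend removed, 196 and 99 were. Between the antibodies, 2 genes were called, 4 with only the 4 libraries compared, 1 with the length and GC trend removed, and 0 to 4 with each library left out. In sdAb-Con (48 h) against sdAb#07.81 (24 h) the count ranged from 33 to 38 with each library left out, around 36, and was 31 with the trend removed, and 26 of the 36 calls were kept in every refit. The exceptions were Nup98, Nup88, Ranbp2, Nup50, Nup210, Kpna3, Kpnb1, Tnpo1, Xpo6 and Xpo7. The range for other pathway genes was 10 to 13 with each library left out, around 13, and their count was 14 with upper-quartile scaling or with the trend removed. The alternatives for these last 2 results, and leaving out genes with several solutions, were chosen after seeing the data, and the latter changed no count. A group left with 1 library adds nothing to the estimate of the spread and was assumed to vary like the others. The median level per kb was 375, or 483 with the second table's means and 1102 with the median transcript length. No reported call became a call in the other direction under a refit. Kpna4, not called in sdAb-Con (48 h) against sdAb#07.81 (24 h), was called higher there with the trend removed (log2 fold change 0.34, adjusted p = 0.0275, limma-voom) and lower without library b of sdAb#07.81 (24 h) (-0.34, adjusted p = 0.0476). No paired analysis was possible because which recovered library carries which replicate number is unknown. With 2 libraries a group and few residual degrees of freedom, small differences cannot be resolved.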
